A study of Bos taurus with 18 samples.

Results

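The respiratory chain and ATP synthase subunits encoded in the nucleus were followed across bovine blastocysts that had formed their cavity on different days. Their probes were taken by gene symbol: symbols beginning with NDUF, UQCR or ATP5, symbols beginning with COX and a digit from 4 to 8, and SDHA to SDHD. The rule gave 128 probes of 84 genes, among 43794 probes on the array, and all 128 passed the filter on dim probes that kept 39991. Complex I had 59 probes of 38 genes, complex II 8 of 4, complex III 8 of 7, complex IV 23 of 15 and complex V, the ATP synthase, 23 of 15. The rule also took 3 probes of the complex I assembly factors NDUFAF1, NDUFAF3 and NDUFAF4. A further 4 probes belonged to 2 genes that are not subunits: ATP5S, now DMAC2L, and COX4NB, now EMC8, which is part of a membrane protein complex of the endoplasmic reticulum. Subunits encoded by mitochondrial DNA, and some nuclear ones, are not analysed here.

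Complex I takes electrons from NADH and complex II takes them from succinate, and both pass them to ubiquinone. Complex III passes them on to cytochrome c and complex IV to oxygen, and the proton gradient built by complexes I, III and IV drives the rotary ATP synthase. In mammalian embryos the mitochondria of the cleavage stages are immature and come from the oocyte, and oxygen use rises as the blastocyst forms and its trophectoderm pumps fluid into the cavity.

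The 18 arrays were 1-colour Agilent arrays of RNA from Bos taurus blastocysts, all made in vitro with frozen semen of a single bull and grown under lowered oxygen beside VERO cells, an established line from monkey kidney. The groups day6, day7 and day8 were collected when the cavity had formed on that day after insemination. The groups day6+1 and day7+1 stayed in culture for 1 further day after it had formed on day 6 or day 7, and day6+2 for 2 further days. There were 3 arrays in every group, which the labels call biological replicates. How many embryos made up a sample and whether they came from separate cultures is not given, so p-values measure the spread between these samples.

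The median raw signal of the arrays lay between 157 and 302 intensity units, and the median background around the spots between 14 and 21. Between 72.0% and 81.1% of probes exceeded the negative controls, and the number of arrays limits the precision. Among the members 122 probes exceeded them on all 18 arrays, 1 spot was set aside and 0 spots were at the scanner's limit. A first principal component with 18.2% of the variance placed day6+1 replicate 1 and day7 replicate 1 with the day8 arrays, away from the rest; 400 probes correlated with it by over 0.8 and 85 by under -0.8, and 0 members were among either. The members' correlations with it ran from -0.74 to 0.34, with a median of -0.22. Of the markers of the blastocyst's own lineages, 12 of 15 trophectoderm probes, 6 of 8 epiblast probes and 6 of 10 hypoblast probes exceeded the negative controls on every array.

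Member probes were brightly measured: their median level was 12.30 log2 units of intensity, against 7.58 over all probes tested. The shares of all probes given below for reference were not matched for this level. As a set the members were highest in the blastocysts that formed on day 6 and were collected at once. Each probe was set against its own mean over the 18 arrays, and the median of these deviations over the 128 probes was taken on every array. It was 0.25, 0.30 and 0.23 on the 3 day6 arrays, a mean of 0.26 ± 0.038 log2 units (SD, n = 3). The day8 arrays gave -0.21, -0.14 and -0.11, a mean of -0.15 ± 0.052. All 3 day6 arrays lay above each of the other 15 arrays, and all 3 day8 arrays below each array of day6, day6+2, day7 and day7+1; day6+1 replicate 1 at -0.11 was at the level of the highest day8 array. The remaining groups lay between them, at 0.047 ± 0.077 in day7, -0.030 ± 0.089 in day6+1, -0.038 ± 0.021 in day6+2 and -0.058 ± 0.053 in day7+1, with ranges that overlapped. In RNA of whole blastocysts, fewer cells of a type and less RNA per cell cannot be told apart.

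**Figure D1:**
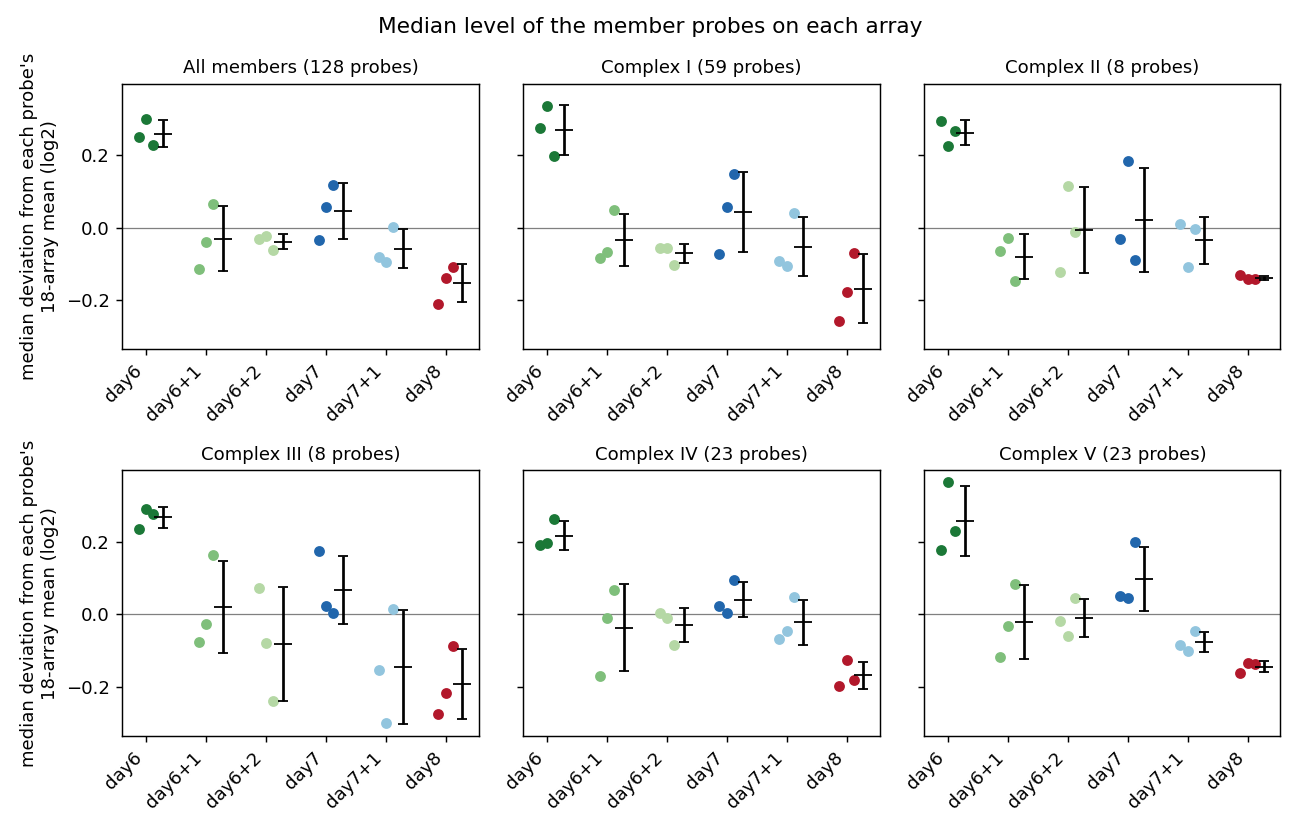
Median deviation of the member probes from each probe's mean over 18 arrays (vertical axis, log2 units) in the 6 groups, for all 128 members and for each complex. Points are arrays, and the bars beside them are the mean and SD of 3 arrays. Over all members the day6 arrays sit at 0.23 to 0.30 and the day8 arrays at -0.21 to -0.11.

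The same order of the extremes was seen in each complex. The day6 mean was the highest of the 6 groups in complexes I (0.27 ± 0.069), II (0.26 ± 0.034), III (0.27 ± 0.029), IV (0.22 ± 0.040) and V (0.26 ± 0.096). The day8 mean was the lowest in all 5, from -0.14 ± 0.006 in complex II to -0.19 ± 0.097 in complex III. The day8 arrays overlapped with day6+1, day6+2, day7 and day7+1 in complex I, with day6+1 in complexes II and IV, and with day6+2 and day7+1 in complex III. In complex V day8 reached from -0.16 to -0.13 while no other array was under -0.12. Probe by probe, 90 of the 128 members (70.3%) had their highest group mean in day6, where 22.4% of all probes tested had theirs, and 64 (50%) had their lowest in day8, where 20% of all probes did.

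The widest difference was between blastocysts that formed on day 8 and on day 6, both collected at formation, a comparison of late with early cavity formation. Of the 128 probes, 9 fell and 0 rose at an adjusted p of 0.05 (limma, Benjamini-Hochberg over all 39991 probes), where 1.43% of all probes passed, 0.54% by falling and 0.893% by rising. The members' median difference was -0.37 log2 units, against -0.02 over all probes; 120 members were below 0, where 52.7% of all probes were, and 70 members (54.7%) were lower on every day8 array than on any day6 array, where 9.48% of all probes were. A single member was higher on every array, where 7.84% of all probes were, and 58 had an unadjusted p under 0.05, where 12.9% of all probes did. Among the 99 members with a mean level of 10 or more the median was -0.42, against -0.05 over the 6913 probes of that level. The count of 9 changed with the settings. Day6 and day8 shared no slide, and with the slide as a block 0 members and 7 of all probes passed, with a members' median of -0.24. With each array centred on its median in place of quantile normalization, 0 members passed, the members' median was -0.25 and 33 members were lower on every array (6.53% of all probes). Leaving out an array gave a count of 1, 0 and 5 for day6 replicates 1, 2 and 3, and of 0, 0 and 12 for day8 replicates 1, 2 and 3.

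**Figure D2:**
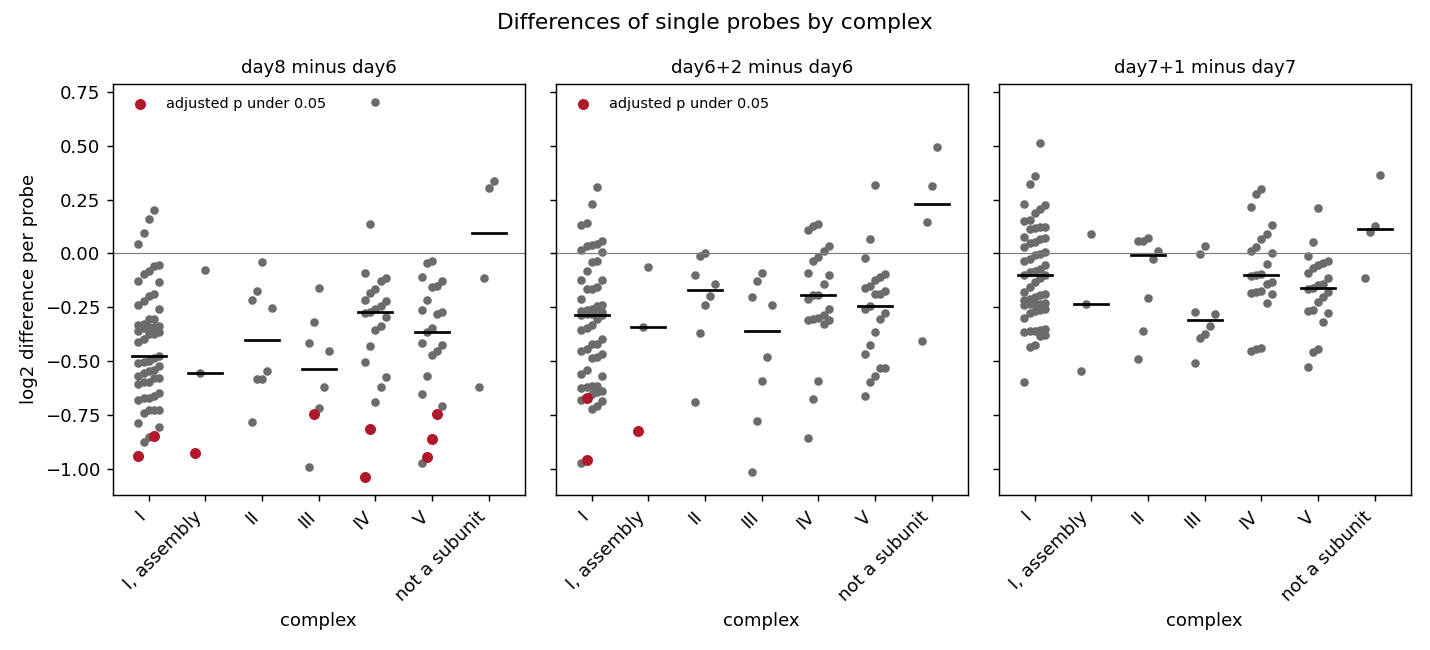
Log2 difference of each member probe (vertical axis) by complex in day8 minus day6, day6+2 minus day6 and day7+1 minus day7. Each point is a probe, black lines are medians, and red points passed an adjusted p of 0.05 in limma: 9, 3 and 0 probes. Most points lie below 0 in the first comparison.

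Complex I had a median difference of -0.48 between day8 and day6. Of its 59 probes 36 were lower on every day8 array, where 54.7% of all members and 9.48% of all probes were. The core subunits of complex I, which carry the flavin and the iron-sulphur centres or hold the ubiquinone site, had a median of -0.49 over 13 probes. All of these were below 0, where 52.7% of all probes were, and 0 of them passed. NDUFS7, which holds the last iron-sulphur centre before ubiquinone, had 4 probes with differences of -0.88, -0.57, -0.55 and -0.36. NDUFS1, the largest core subunit, had probes at -0.59, -0.35 and -0.20, and NDUFV1, the subunit that binds NADH, was at -0.56 ± 0.34 (SE) with overlapping groups. The accessory subunits of the NDUFA series had a median of -0.54 over 25 probes, with 17 lower on every array, where 9.48% of all probes were. NDUFA11, an accessory subunit of the membrane arm, fell on 2 of its 3 probes. Its brightest probe read 12.40, 12.84 and 12.70 on the day6 arrays and 11.40, 11.74 and 11.97 on the day8 arrays, a fall of 0.94 ± 0.20 (SE, limma adjusted p = 0.0186). The groups did not overlap on it, and the arrays of the other 4 groups read from 11.94 to 12.61, overlapping with the lower edge of day6 and the upper edge of day8. A second probe read 11.94, 11.95 and 11.72 on day6 and 10.49, 11.11 and 11.45 on day8 (-0.85 ± 0.21, adjusted p = 0.0491). Its call held under 3 of 9 other settings and in 6 of 18 fits with 1 array left out. The third probe, at -0.33 ± 0.23, did not pass. NDUFA4, listed with complex I by its name and now assigned to complex IV, was at -0.51 ± 0.18 with an adjusted p of 0.178 and groups that did not overlap.

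NDUFAF3, an assembly factor that acts early in the building of complex I, was the member with the most calls. Its probe read 13.50, 13.53 and 13.53 on the day6 arrays and 12.34, 12.71 and 12.74 on the day8 arrays, and it fell by 0.93 ± 0.19 (SE, limma adjusted p = 0.0185). On day7 it read 13.19, 13.40 and 13.62, so that the arrays of blastocysts collected at formation on day 6 and day 7 overlapped while those of day 8 lay apart. The 3 groups with extra culture read from 12.42 to 13.05, below every day6 and day7 array. In the F test over all 6 groups it was the 1 member that passed (adjusted p = 0.0202), where 2.14% of all probes did, and without any 1 of the 3 day6 arrays 0 did. The other assembly factors, NDUFAF4 at -0.55 ± 0.20 and NDUFAF1 at -0.08 ± 0.24, did not pass.

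Complex II had 0 calls between day8 and day6 and a median of -0.40, and its probes disagreed in size. SDHB, the iron-sulphur subunit, had a probe at -0.79 ± 0.22 (adjusted p = 0.0682), which read 12.02, 11.63 and 11.91 on day6 and 10.80, 11.27 and 11.13 on day8, and a brighter one at -0.25 ± 0.20. SDHA, the flavin subunit, was at -0.21 ± 0.21 on its bright probe; its dim probe exceeded the negative controls on all 3 day6 arrays and on 1 day8 array. The membrane anchor SDHC differed by -0.58 and -0.55 on its probes, and SDHD by -0.17 and -0.04.

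Complex III had 1 call between day8 and day6 and a median of -0.54. UQCRQ, a small subunit next to cytochrome b, read 14.71, 14.90 and 14.68 on the day6 arrays and 13.96, 14.17 and 13.94 on the day8 arrays, a fall of 0.75 ± 0.18 (SE, limma adjusted p = 0.0433). This call held under 5 of 10 other settings and in 8 of 18 fits with 1 array left out. Every array outside day8 read 14.21 or more; the group means were 14.64 in day6+2, 14.44 in day7+1 and 14.38 in day6+1, against 14.02 in day8. UQCRC1, a core protein of the matrix side, was at -0.62 ± 0.26 and -0.99 ± 0.35 on its probes, neither of which passed, and UQCRC2, its partner, at -0.42 ± 0.21.

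Complex IV had 2 calls and a median of -0.27, and they were both forms of subunit VIII. COX8A, the form found in most tissues, read 14.93, 14.86 and 14.93 on day6 and 13.85, 14.14 and 14.30 on day8, a fall of 0.81 ± 0.19 (SE, limma adjusted p = 0.0339). All other 15 arrays read 14.61 or less, below the lowest day6 array. COX8B, the form of heart and skeletal muscle in most mammals, read 11.97, 11.51 and 11.77 on day6 and 10.37, 10.94 and 10.83 on day8, a fall of 1.04 ± 0.25 (adjusted p = 0.0409). Whether the COX8A and COX8B probes also bind each other's transcript was not tested. Of the other tissue-linked forms, COX6B2, known from testis, was at -0.11 ± 0.18; COX7A1, a muscle form, exceeded the negative controls on 0 day6 arrays and 1 day8 array, and COX6A2, a muscle form too, on 2 and 1.

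The widely expressed subunits of complex IV had 1 call among 16 probes and a median of -0.29 between day8 and day6. COX4, now COX4I1, was at -0.28 ± 0.19, COX5B at -0.22 ± 0.16, COX6B1 at -0.16 ± 0.20 and COX6C at -0.18 ± 0.19, and none of these passed. COX5A had 4 probes at -0.58, -0.43, -0.24 and -0.09, the last being its brightest, at 15.76 log2 units on average. COX5B averaged 15.74, and the highest mean level of any probe tested was 15.95. COX6A1 was at -0.62, -0.36 and -0.29 and COX7A2 at -0.69 and -0.50 on their probes. The groups did not overlap on any of these 5 probes, where 9.48% of all probes were lower on every day8 array.

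Complex V had 3 calls and a median of -0.37, and all 23 of its probes were below 0, where 52.7% of all probes were. The subunits of the F1 head and central stalk, where ATP is made, had the median nearest to 0, -0.26 over 7 probes. The catalytic subunit ATP5B was at -0.04 ± 0.19 and ATP5A1 at -0.15 ± 0.16. ATP5B averaged 15.39 and ATP5A1 15.5 log2 units, where the highest mean level of any probe tested was 15.95. Whether such levels narrowed their differences was not tested. The small membrane subunits e, f and g had a median of -0.71 over 5 probes. ATP5J2, which encodes subunit f, read 13.66, 13.71 and 13.53 on day6 and 12.71, 12.81 and 12.54 on day8, a fall of 0.95 ± 0.19 (SE, limma adjusted p = 0.0169). Its other probes were at -0.97 ± 0.25 (adjusted p = 0.0522) and -0.71 ± 0.25, so all 3 had groups that did not overlap. ATP5H, the d subunit of the peripheral stalk, read 13.11, 13.29 and 13.06 on day6 and 12.58, 12.41 and 12.22 on day8 (-0.75 ± 0.17, adjusted p = 0.0328), and -0.42 ± 0.17 on a second probe that did not pass.

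ATP5G1, ATP5G2 and ATP5G3 encode the same mature subunit c of the rotor ring. An ATP5G1 probe read 14.18, 14.08 and 13.95 on the day6 arrays and 13.03, 13.11 and 13.49 on the day8 arrays, a fall of 0.86 ± 0.18 (SE, limma adjusted p = 0.0186). Its brightest probe, at 15.73 on average, read 15.91, 15.55 and 15.80 against 15.67, 15.79 and 15.70, a difference of -0.03 ± 0.16 with overlapping groups, and the third was at -0.57 ± 0.24. The differences of this gene's probes lay apart by as much as 0.83 log2 units. The brightest lay near the highest mean level of any probe tested, 15.95. Whether this narrowed its difference was not tested. ATP5G2 was at -0.28 ± 0.18 and ATP5G3 at -0.42 ± 0.23, and neither passed.

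**Figure D3:**
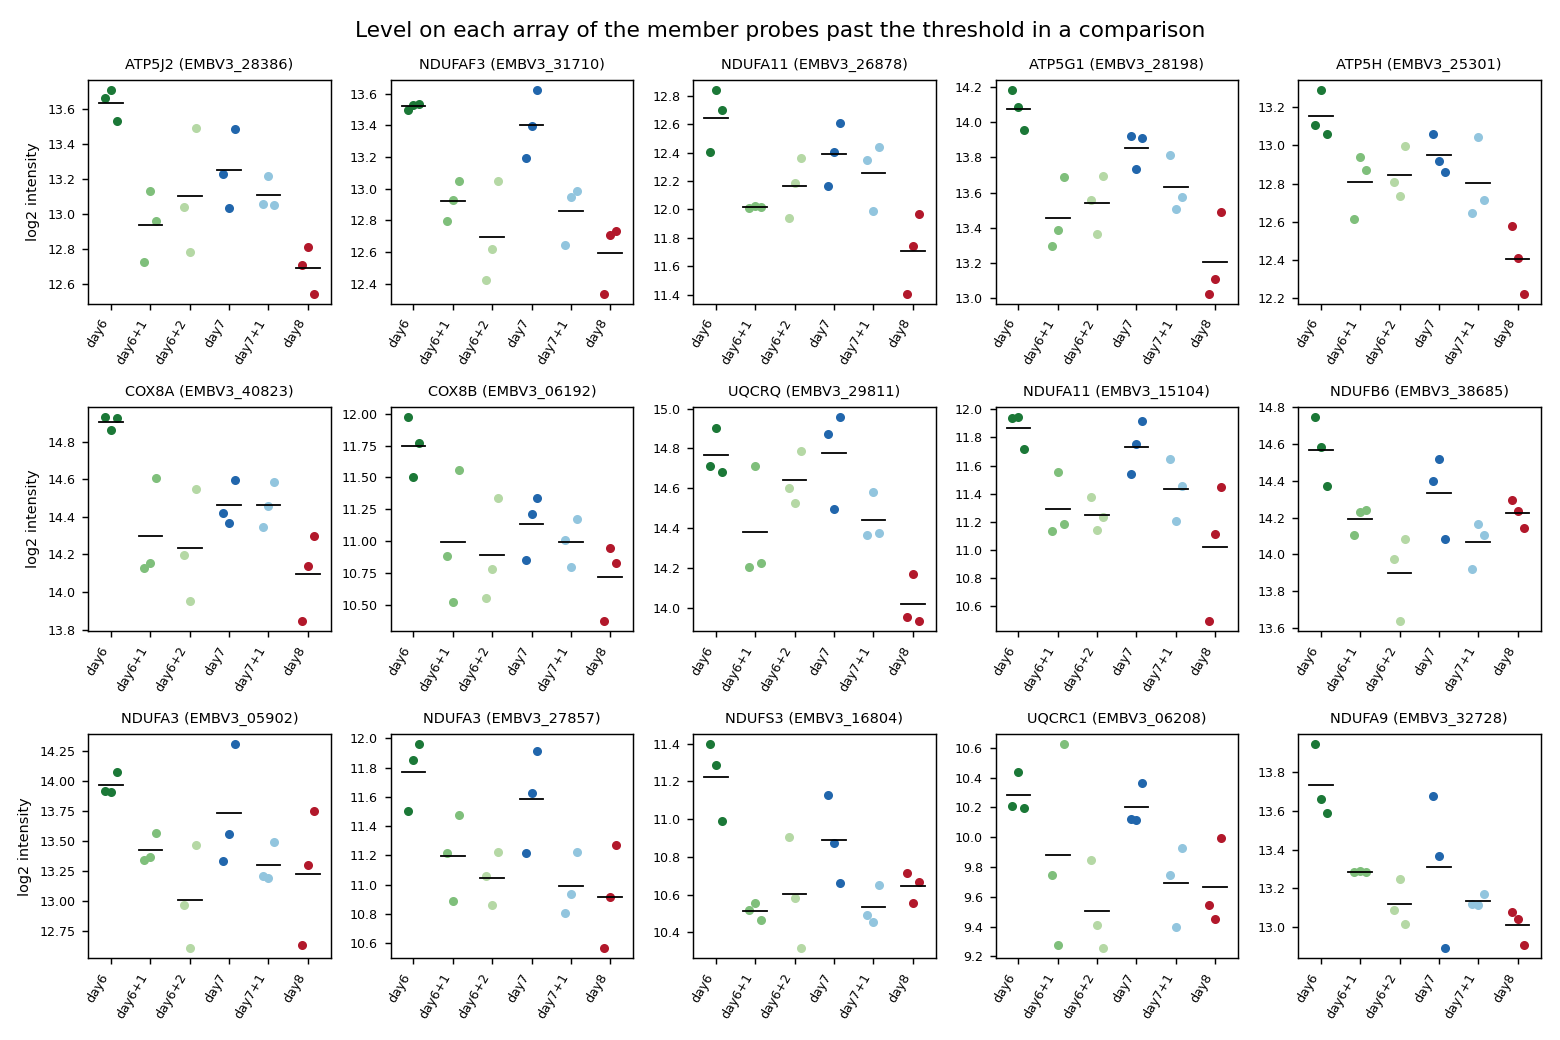
Level on each of 18 arrays (vertical axis, log2 units of intensity, with a separate scale per panel) of the 15 member probes past an adjusted p of 0.05 in limma in day8 minus day6, day6+2 minus day6 or the trend per extra day. Points are arrays and lines are group means of 3 arrays. The day6 mean is the highest in every panel but that of UQCRQ, and day8 is the lowest group for COX8A, UQCRQ and ATP5H, while day6+2 is the lowest for NDUFB6.

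Culture for 2 more days after a cavity had formed on day 6 went with a fall of 3 members and a rise of 0, where 3.43% of all probes passed, 1.22% by falling and 2.22% by rising. The members' median difference in day6+2 minus day6 was -0.27, against -0.02 over all probes. In all, 107 members were below 0, where 52.8% of all probes were, and 51 (39.8%) were lower on every day6+2 array than on any day6 array, where 9.02% of all probes were. There were 4 members higher on every array, where 8.94% of all probes were. All 3 calls were in complex I or its assembly, which held 59 and 3 of the 128 member probes. NDUFAF3 read 12.42, 12.62 and 13.05 on the day6+2 arrays, under its day6 values of 13.50 to 13.53, and fell by 0.82 ± 0.19 (SE, limma adjusted p = 0.0145). NDUFB6, an accessory subunit of the membrane arm, read 14.75, 14.59 and 14.37 on day6 and 13.97, 13.64 and 14.08 on day6+2, a fall of 0.67 ± 0.18 (adjusted p = 0.0355). On its second probe the difference was -0.35 ± 0.21 and did not pass. NDUFA3, also of the membrane arm, read 13.91, 13.91 and 14.08 on day6 and 12.96, 12.60 and 13.46 on day6+2. It fell by 0.96 ± 0.27 (adjusted p = 0.0497), a call that held in 5 of 18 fits with 1 array left out. On its second probe the difference was -0.72 ± 0.22 (adjusted p = 0.0877).

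These counts also moved with the settings. The 2 groups shared slides 1 and 4, and the members' median was -0.27 within slide 1 and -0.25 within slide 4; with the slide as a block 12 members and 1718 of all probes passed, against 1373 of all probes without it. With each array centred on its median 0 passed, the members' median was -0.09, and 19 members were lower on every array, where 6.09% of all probes were. The count was 0 without day6 replicate 2 or day6+2 replicate 2, 1 without replicate 1 of either group and 5 without day6+2 replicate 3. Centring also turned the split of all calls from 887 higher and 486 lower to 1036 and 235, and in day8 minus day6 from 357 and 216 to 372 and 72.

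Among the catalytic subunits, day6+2 differed from day6 by -0.97 ± 0.34 for NDUFV1, by 0.06, -0.15 and -0.47 for the probes of NDUFS1, and by -0.37 and -0.69 for those of SDHB; none passed. UQCRC1 was at -0.78 ± 0.26 and -1.02 ± 0.35, COX8A at -0.67 ± 0.19 (adjusted p = 0.0532) and COX8B at -0.86 ± 0.25 (adjusted p = 0.0659). COX4 was at 0.04 ± 0.19, COX5B at -0.10 ± 0.16, COX6B1 at -0.19 ± 0.20, ATP5A1 at -0.26 ± 0.16 and ATP5B at 0.07 ± 0.19. The probes of COX5A ran from -0.29 to -0.04, those of COX6A1 from -0.59 to -0.30, those of COX7A2 from -0.31 to 0.11, and those of ATP5G1 from -0.53 to -0.02. UQCRQ, which had fallen in day8, was at -0.13 ± 0.18, and direct comparison of day8 with day6+2 gave -0.62 ± 0.18 (adjusted p = 0.132), so the difference between them was not called.

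A single extra day gave 0 calls among the members, where 1.21% of all probes passed; 32 members had an unadjusted p under 0.05 in limma, where 9.69% of all probes did. The members' median in day6+1 minus day6 was nevertheless -0.25, with 112 below 0 (52.8% of all probes) and 44 (34.4%) lower on every array (7.78% of all probes), against 2 higher on every array (7.28% of all probes). The smallest p was that of NDUFS3, a core subunit without a redox centre, which read 11.40, 11.29 and 10.99 on day6 and 10.52, 10.55 and 10.47 on day6+1 (-0.71 ± 0.18, adjusted p = 0.061). It was followed by ATP5J2 at -0.70 ± 0.19, ATP5G1 at -0.62 ± 0.18, NDUFA11 at -0.63 ± 0.20 and NDUFA8 at -0.69 ± 0.22. Without day6+1 replicate 1 and day7 replicate 1, 51 members were lower on every array, where 12.9% of all probes were. With the slide as a block the median was -0.12, within slide 4 it was -0.14, and with centring -0.09, when 19 members were lower on every array (4.86% of all probes). From day6+1 to day6+2 the median was 0.00, and 64 of 128 members were below 0, where 49.5% of all probes were. On every array 6 members were lower and 7 higher, where 4.22% and 4.19% of all probes were; 0 members and 0 of all probes passed, and 3.37% of all probes had an unadjusted p under 0.05.

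After a cavity had formed on day 7, an extra day gave 0 calls among the members and 6 over all probes (0.015%), and 8 members had an unadjusted p under 0.05 in limma, where 6.9% of all probes did. The members' median in day7+1 minus day7 was -0.12, with 88 below 0 (49.2% of all probes) and 12 (9.38%) lower on every array (4.79% of all probes), against 3 higher (5.63%). NDUFC2, an accessory subunit of the membrane arm, had the smallest p and the opposite sign. It read 12.14, 12.07 and 11.78 on day7 and 12.46, 12.52 and 12.54 on day7+1, a difference of 0.51 ± 0.17 (adjusted p = 0.514). It was low on day7 against day6 too, at -0.66 ± 0.17 (adjusted p = 0.124). NDUFAF3 read 12.64, 12.95 and 12.98 on day7+1, below all day7 arrays, at -0.55 ± 0.19 (adjusted p = 0.543). The 5 smallest p also included COX6A1 at -0.45 ± 0.17, COX5A at -0.45 ± 0.16 and NDUFA3 at -0.60 ± 0.22. The interaction, which sets the difference made by 1 extra day after formation on day 7 against that after day 6, gave 0 members and 2 of all probes (0.005%). Its members' median was 0.14, and -0.10 with centring, where the median of all probes was -0.08.

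**Figure D4:**
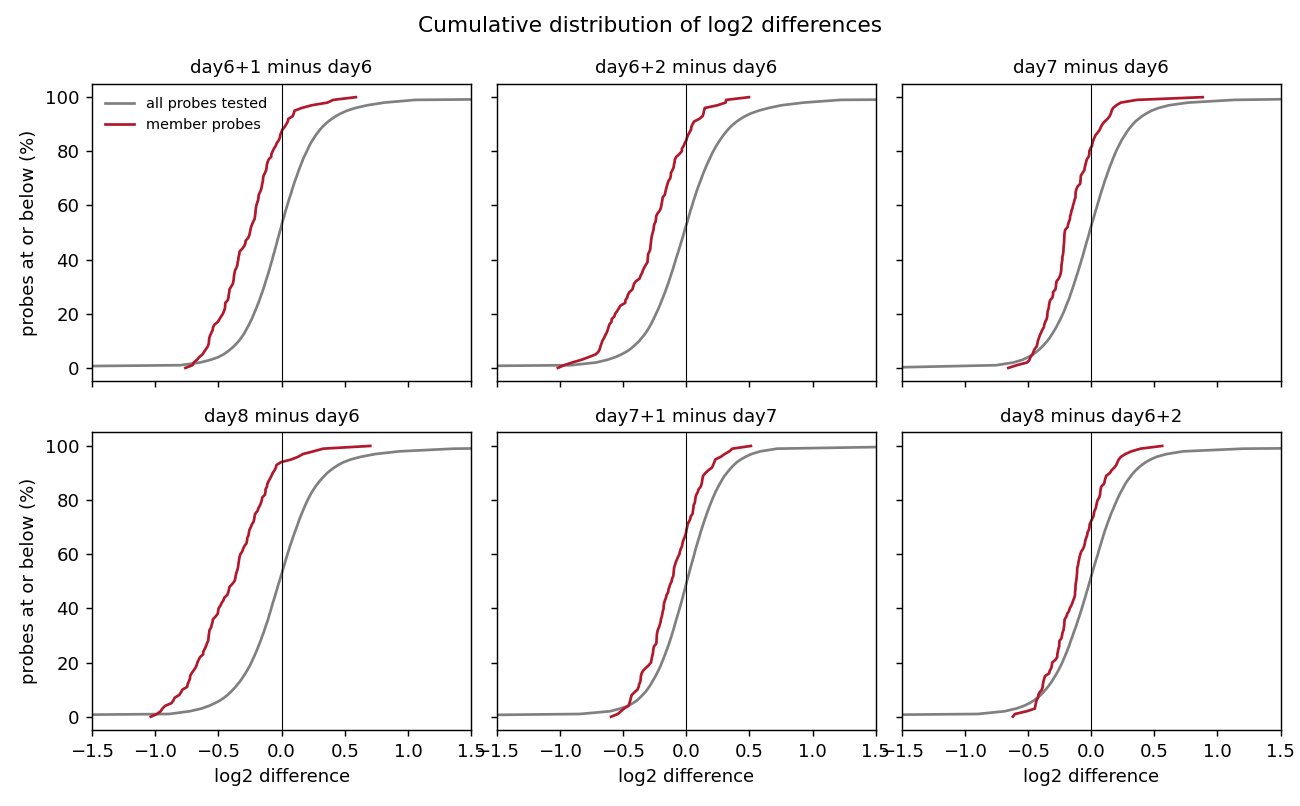
Cumulative share of probes (vertical axis, percent) at or below each log2 difference (horizontal axis) for the 128 member probes, in red, and all 39991 probes tested, in grey, in 6 comparisons. The red curve lies to the left of the grey one, with medians of -0.37 in day8 minus day6 and -0.12 in day7+1 minus day7. Axes end at 1.5 log2 units on either side.

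A linear model over all 18 arrays had a slope for the formation day and another for time in culture afterwards. It gave 7 falling members per extra day and 0 rising ones, where 3.64% of all probes passed, 1.28% by falling and 2.36% by rising. The members' median slope was -0.13 log2 units per extra day, and 110 were below 0, where 52.5% of all probes were. The slope assumes equal steps per day, while the members' mean deviation was 0.26 in day6, -0.030 in day6+1 and -0.038 in day6+2. NDUFAF3 fell by 0.44 ± 0.09 per day (SE, limma adjusted p = 0.00686), and it stayed past the threshold under all 9 other settings tried and with any of the 18 arrays left out. Next came NDUFB6 with a fall of 0.32 ± 0.07 (adjusted p = 0.0118) and both probes of NDUFA3 with falls of 0.47 ± 0.12 and 0.41 ± 0.10 (adjusted p = 0.0193 and 0.0207). NDUFS3 fell by 0.32 ± 0.09 (adjusted p = 0.0376), UQCRC1 by 0.41 ± 0.11 (adjusted p = 0.0386) and NDUFA9, an accessory subunit beside the ubiquinone site, by 0.28 ± 0.08 (adjusted p = 0.0451). The call held in 10 of 18 fits with 1 array left out for NDUFS3, in 9 for UQCRC1 and in 3 for NDUFA9. With centring 2 members and 1169 of all probes passed, and with the slide as a block 11 and 1655. Without day6+1 replicate 1 and day7 replicate 1 the counts were 4 and 1440. The count of members was 3, 2 and 2 without day6 replicate 1, 2 and 3. It was 1 without day6+2 replicate 2 and 4 without day7+1 replicate 2.

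Per day of formation 0 members passed in the same model, where 0.245% of all probes did, and 58 members had an unadjusted p under 0.05 in limma, where 11.3% of all probes did. The median slope was -0.17 per day, with 118 members below 0 (52.0% of all probes). NDUFS7 had the smallest p, with a slope of -0.43 ± 0.10 (adjusted p = 0.0741), followed by NDUFAF3 at -0.38 ± 0.09, NDUFA9 at -0.32 ± 0.08, UQCRB at -0.26 ± 0.07 and NDUFA3 at -0.38 ± 0.10. Without day6+1 replicate 1 and day7 replicate 1 there were 6 calls, while calls over all probes went from 98 to 581; without day6+1 replicate 2 there were 3.

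Formation on day 7 against day 6 gave 0 calls among the members, where 0.268% of all probes passed, and a median of -0.21; 13 members had an unadjusted p under 0.05 in limma, where 9.53% of all probes did. Of the members, 104 were below 0 (52.2% of all probes) and 24 (18.8%) lower on every array (7.17% of all probes), a count that was 6 with centring (4.49% of all probes), and 1 was higher (5.64%). The members' median was -0.14 without the arrays that stand apart and -0.05 when slides were blocked. ATP5L, the g subunit of the ATP synthase, was at -0.46 ± 0.18, COX8B at -0.62 ± 0.25, a COX7A2 probe at -0.51 ± 0.22 and an NDUFA2 probe at -0.45 ± 0.19, none of which passed. For the last the slide block turned the sign, to 0.05.

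Day8 against day7 also gave 0 calls, where 0.0175% of all probes passed; 24 members had an unadjusted p under 0.05 in limma, where 8.93% of all probes did. The comparison had a median of -0.21, 106 members below 0 (49.9% of all probes) and 25 (19.5%) lower on every array (6.8% of all probes), against 2 higher (5.64%). NDUFAF3 was at -0.81 ± 0.19 (adjusted p = 0.11) and UQCRQ at -0.75 ± 0.18 (adjusted p = 0.121), and next came ATP5G1 at -0.65 ± 0.18 and NDUFA11 at -0.69 ± 0.20. With day7 replicate 1 left out, 1 member passed. Within slide 5, which held 1 array of each group, the members' median was -0.25. The comparisons of day6+1, day6+2, day7 and day8 with day6 all share the 3 day6 arrays.

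The groups were also compared at equal time after insemination. On day 7, day7 minus day6+1 had a members' median of 0.09, with 45 members below 0 (50.5% of all probes), 1 lower and 8 higher on every array (5.02% and 4.67%), and 0 members and 0 of all probes passed; 6 members and 5.25% of all probes had an unadjusted p under 0.05 in limma. SDHD had the smallest p on a dim probe, at 0.70 ± 0.19 (adjusted p = 0.683), which exceeded the negative controls on 1 of 3 day6+1 arrays. On day 8, day8 minus day6+2 had a median of -0.12, with 92 below 0 (51.7%), 17 (13.3%) lower on every array (8.05%), and 0 calls where 0.553% of all probes passed; the median was 0.04 once slides were blocked, and the groups share no slide. There were 2 members higher on every array (7.23%), and 11 had an unadjusted p under 0.05 in limma, where 10.3% of all probes did. COX7A2 on its brighter probe read 14.01, 14.07 and 14.24 on day8 and 14.99, 14.60 and 14.57 on day6+2, a difference of -0.61 ± 0.18 (adjusted p = 0.121). Day8 minus day7+1 had a median of -0.10, with 88 below 0 (51.8%) and 23 (18.0%) lower on every array (6.78%). The members' median was 0.03 with centring, where that of all probes was 0.03 too, and -0.07 within slide 2. In this comparison 0 members and 0 of all probes passed, and 11 members and 8.06% of all probes had an unadjusted p under 0.05 in limma. NDUFA11 had the smallest p among members, at -0.56 ± 0.20 (adjusted p = 0.368).

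Not all members followed the set. The correlation of each probe with the median of the others over the 18 arrays, which share groups and slides, had a median of 0.53, and 9 members were under 0. They included both probes of NDUFA1, an X-linked accessory subunit of complex I, at -0.30 and -0.26. NDUFA1 read 13.41, 13.20 and 12.95 on day6 and 13.35, 13.59 and 13.23 on day8 on its brighter probe, a difference of 0.20 ± 0.18 with overlapping groups. COX7B, a small subunit of complex IV, differed by 0.70 ± 0.44, and its arrays of replicate 3 were the highest of each group, from 8.44 to 9.71. ATP5S, the gene that is no subunit, was under 0 on all 3 probes, with a difference of 0.34 ± 0.18 in day8 on the one with the lowest correlation, -0.49. NDUFV2 and the dim probes of NDUFA4L2, a relative of NDUFA4 known for its response to hypoxia, and COX7A1 made up the rest. NDUFA4L2 exceeded the negative controls on 1 day6 array and 2 day8 arrays and was at 0.16 ± 0.20.

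Of the 31 genes with more than 1 probe, 29 had all their probes below 0 in day8 minus day6, and NDUFA1 all above; the probes of 1 gene lay apart by a median of 0.28 and at most 0.83. In day6+2 minus day6, 25 had all probes below 0 and 2 all above.

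Outside the members, the 5 named genes whose probes followed the members' median most closely over the 18 arrays were FAM113B (r = 0.92), ABHD11 (0.89), TXN2 (0.86), AAMP (0.86) and FOXP4 (0.85). FAM113B had group means from 11.63 in day6 to 10.39 in day8.

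Related mitochondrial gene lists were read from the same tests, in which 0.54% of all probes fell, 0.893% rose and 52.7% were below 0 in day8 minus day6. Among 126 probes of 75 mitochondrial ribosomal protein genes, 3 fell in day8 minus day6 and 0 rose, with a median of -0.28 and 115 below 0; MRPS18C fell by 0.87 ± 0.21 (limma adjusted p = 0.0376), followed by MRPS14 and MRPL15 with falls of 0.74 each. The list of import and protein quality control, with 42 probes, had a median of -0.30 and 4 falls. TIMM17A, a subunit of the inner membrane translocase, fell on 3 probes, by 1.21 ± 0.18 (limma adjusted p = 0.00226) on the one with the largest change. TIMM50, the receptor of the translocase, fell by 1.07 ± 0.20 (adjusted p = 0.0101). Electron carriers and coenzyme Q synthesis, with 27 probes, had a median of -0.13 and 1 fall. DHODH, the pyrimidine synthesis enzyme that feeds electrons to ubiquinone, fell by 2.61 ± 0.63 (limma adjusted p = 0.0392). The assembly factors outside the NDUFAF genes (38 probes, median -0.21), the regulators of mitochondrial biogenesis and DNA maintenance (28 probes, -0.19) and the carriers and porins (22 probes, -0.07) had 0 calls there.

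In day6+2 minus day6 the same lists had calls in both directions, where 1.22% of all probes fell and 2.22% rose. CYC1, cytochrome c1 of complex III, which the symbol rule does not take, fell by 0.94 ± 0.20 (limma adjusted p = 0.00579). SURF1, needed to assemble complex IV, fell by 0.90 ± 0.23 (adjusted p = 0.0321), and FOXRED1, needed to assemble complex I, rose by 0.89 ± 0.18 (adjusted p = 0.00468). SLC25A5, an exchanger of ADP and ATP, fell by 1.02 ± 0.24 (adjusted p = 0.017), and so did TIMM8A by 0.90, TIMM50 by 0.81 and MRPL38 by 0.73. MYC, a transcription factor listed with the biogenesis regulators, rose by 2.21 ± 0.33 (adjusted p = 3.17e-04). The medians of the lists were -0.13 for assembly factors, 0.00 for carriers of electrons, -0.29 for biogenesis, -0.12 for carriers and porins, -0.20 for import and -0.19 for mitochondrial ribosomal proteins.

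Among the markers of the blastocyst's lineages, the summed trophectoderm signal was lowest in day6, where the members were highest. The summed signal of the 15 trophectoderm probes ran from 17.07 to 17.21 log2 units on the day6 arrays, 17.36 to 17.51 on day8 and 17.52 to 17.67 on day6+2, with no overlap between day6 and any other group. TFAP2A, a trophectoderm transcription factor, rose on its brightest probe by 1.81 ± 0.32 in day8 (limma adjusted p = 0.00812) and by 2.79 ± 0.32 in day6+2 (adjusted p = 2.32e-05). Its other probes were dim and exceeded the negative controls on 12 and 6 arrays. IFNT ran from 11.29 to 15.70 over the arrays. It rose by 2.33 ± 0.42 in day8 (limma adjusted p = 0.00874) and by 3.56 ± 0.42 in day6+2 (adjusted p = 2.90e-05). KRT8, the brightest of these markers, stayed between 15.85 and 15.98. The sum rests most on bright probes, of which KRT8 hardly moved while IFNT rose to as much as 15.70. How much of the sum's rise came from IFNT was not tested, so it is no measure of the trophectoderm markers in general. The part of these lineages in the members' values was not tested either. The epiblast sum ran from 13.15 to 13.37 on day6, 13.32 to 13.74 on day8 and 13.59 to 13.76 on day6+2. The hypoblast sum ran from 16.27 to 16.37, 16.06 to 16.29 and 16.17 to 16.25. These sums hide single markers, and FN1 alone read 15.71 to 15.98. In day6+2 minus day6, probes of NANOG (limma adjusted p = 1.84e-04) and TDGF1 (2.70 ± 0.47) rose. Probes of POU5F1 (-1.09 ± 0.26), PRDM14 (-0.99 ± 0.25) and PDGFRA (-0.90) fell, all past the threshold. In day8 minus day6, NANOG rose (1.77 ± 0.35) and GATA4 fell (-2.47 ± 0.54, adjusted p = 0.0257). Cells from the culture were looked for as well: 6 of 19 probes of cumulus and granulosa markers exceeded the negative controls on all arrays and 3 on none. The former were of STAR, CYP19A1, FSHR, FST and INHBA, and LHCGR and AMH were among the latter. The sum of the cumulus and granulosa markers ran from 11.83 to 12.11 on day6 and 11.96 to 12.16 on day8. For fibroblast and kidney epithelial markers 4 of 11 probes exceeded the controls on all arrays and 2 on none. COL1A2 (10.43 to 11.69), COL1A1, THY1 and PAX8 did so on all, and DCN and AQP1 on none. Their sums were 11.62 to 11.90 on day6 and 12.02 to 12.30 on day8, without overlap. Which cells these signals came from was not tested.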

How the data were processed

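Per the labels' protocols, RNA went through a double round of RiboAmp HSPlus amplification before Cy3 labelling. Per the file headers, the deposited scans hold the median foreground and background intensity of each spot, neither corrected nor scaled. The authors' deposited value table is in log2 units; set against the scans, it was the log2 of foreground minus background, quantile normalized over 18 arrays, with 240 empty values at spots set aside. Per the submitters' processing notes, R 3.2.4 and limma 3.28.5 were used for 9 of the 18 arrays. Scans gave the main values here, since they keep background and controls apart, and the authors' table was an alternative.

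Intensities were corrected with normexp (offset 50), quantile normalized and taken to log2 in limma 3.58.1 under R 4.3.3. A probe was kept if it exceeded the 95th percentile of 153 negative control spots on 3 or more arrays (39991 probes, 91.3%). Symbols came from the array's annotation: 21790 probes had 1, 22004 none and 0 several. All 84 member genes were found in the ARS-UCD2.0 gene table, 65 under the same symbol and 19 as an older one. Probe sequences are not used here. Each probe was tested by lmFit and eBayes over all 18 arrays, in a model of 6 group means or of formation day and extra days, with Benjamini-Hochberg adjustment over all probes and a threshold of 0.05. The fitting code was tested on simulated data.

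Members, lists and tests were chosen with earlier results of these data known. Named are the member probes past the threshold, otherwise the 5 with the smallest p, a fixed set of core, catalytic and tissue-linked subunits, and up to 4 called genes of each list; other members were named after their values were seen. The 5 slides were known from file names alone. Replicates 1 and 2 of day6 and day6+2 lay on slide 1, of day7+1 and day8 on slide 2, and of day7 and day6+1 on slide 3; replicate 3 lay on slide 5 for day7 and day8 and on slide 4 for the other 4 groups. Arrays with the same replicate number deviated together by over 0.1 in all 3 pairs only in day6+2 against day6+1 (r = 0.17, 0.11 and 0.23), where 0 members passed with and without the number as a block.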

Additional observations from a re-analysis of the deposited data

How the results depend on the processing

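Of 292 counts and medians recomputed under another setting, 247 stayed within the spread between replicates of a members' median (SD 0.06) or within 1.5 times the count. A count of 0 that stayed 0 is among these, and a median near 0 could change sign within that spread. Of 1514 values of named probes under another setting or with 1 array left out, 1339 kept direction and call. A single one turned, NDUFA2 in day7 minus day6 with the slide as a block (0.049). Many named probes were not called in the main fit, so a kept call says little for them. With 1 array left out 98 values lost a call and 10 gained one, and under other settings 45 lost and 21 gained one. The cause of the changes below was not tested. With centring of every array on its own median, the counts of called members were 0 in day6+2 minus day6, 0 in day8 minus day6, 2 per extra day and 0 in the F test. Of all probes 1271, 444, 1169 and 665 passed there. The counts of members with every array lower were then 19, 19, 6 and 33 in day6+1, day6+2, day7 and day8 minus day6. Of all probes 4.86%, 6.09%, 4.49% and 6.53% were. Members' medians were -0.092, -0.089, -0.075 and -0.246 in the same order. They were -0.227 in day7+1 minus day7, 0.029 in day8 minus day7+1 and -0.103 in the interaction. Medians of all probes under centring were 0.034 in day8 minus day7+1 and -0.077 in the interaction. The share of higher probes among all calls moved under it from 69.7% to 89% in day6+1 minus day6, from 81.3% to 94.8% in day7 minus day6, from 64.8% to 76.8% per extra day and from 68.4% to 93.3% per formation day. Plain background subtraction, scaled by the upper quartile, gave 1 call in day6+2 minus day6, where 1212 of all probes passed. Members' medians under it were -0.18 in day7+1 minus day7 and 0.066 in the interaction, where it moved the median of all probes to 0.163. The median of all probes moved to -0.131 in day6+1 minus day6 and to -0.102 in day6+2 minus day6. The authors' table gave 1, 5 and 14 calls in day6+1, day6+2 and day8 minus day6 and 3 in the F test. Over all probes it gave 528, 1446, 618 and 869 calls there. The brightest probe of each gene gave 5 calls among 84 in day8 minus day6 (507 over all probes). A fit of the compared arrays alone gave 5 in day6+2 minus day6 (1619 over all probes).

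With the slide as a fixed block 12 members were called in day6+2 minus day6 (1718 of all probes) and 0 in day8 minus day6 (7). Per extra day 11 members and 1655 of all probes passed. Members' medians were -0.117, -0.052 and -0.243 in day6+1, day7 and day8 minus day6, -0.131 in day6+2 minus day6+1, 0.04 in day8 minus day6+2 and 0.01 in the interaction; within slide 4 they were -0.14 in day6+1 minus day6 and -0.091 in day6+2 minus day6+1. With the replicate number as a block, which the labels do not show to pair the samples, 1, 9 and 19 members were called in day6+1, day6+2 and day8 minus day6. There were 13 per extra day, 4 per formation day and 6 in the F test. Of all probes 726, 1690, 1039, 1742, 201 and 1371 passed, in the same order. Without day6+1 replicate 1 and day7 replicate 1 the counts were 1 in day8 minus day7 (596 over all probes, against 7) and 4 per extra day (1440 over all probes, against 1455). Per formation day the count was 6 (581 over all probes, against 98), and the members' median of day7 minus day6 was -0.142.

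With 1 array left out, counts of calls ran from 0 to 5 in day6+2 minus day6, 0 to 12 in day8 minus day6, 0 to 1 in day8 minus day7, 1 to 8 per extra day, 0 to 3 per formation day and 0 to 3 in the F test, and were 0 throughout in the other comparisons. Medians ran from -0.282 to -0.237, -0.288 to -0.248, -0.209 to -0.142 and -0.435 to -0.36 in day6+1, day6+2, day7 and day8 minus day6. They ran from -0.044 to 0.03 in day6+2 minus day6+1 and from 0.034 to 0.152 in day7 minus day6+1.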
